A study of Mus musculus with 12 samples.

Results

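Messenger RNA was sequenced from the livers of 12 mice, and the 6 conceived by in vitro fertilization (IVF) were compared with the 6 conceived naturally, with females (F) and males (M) as separate strata. IVF means that eggs are fertilized outside the body. The offspring of both modes came from CF1 females and B6SJL males, were 39 weeks old and, as far as the labels say, had no other treatment. IVF females, IVF males, naturally conceived females and naturally conceived males had 3 libraries each, and these 12 are all the libraries of the series. The labels name the IVF protocol of the Jackson Laboratory and do not give litters, donors or the recipient females. Replicate numbers used here follow the order of accession and pair no animals. The question was which liver genes differed between IVF and natural conception in the same direction in both sexes.

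Total counts ranged from 6826534 to 27832271 per library. The smallest belonged to IVF F replicate 1 and natural F replicate 2, so each mode of conception held 1 of them. Of 24527 gene symbols, 13204 had enough counts to be tested. A level is given below as CPM, counts scaled to a common library size after TMM, a normalization for library composition, and a count of 0 allowed at most 0.108 CPM in the largest library and 0.439 CPM in the smallest, from counting error only. The liver label was checked against hepatocyte markers: 9 of them, albumin included, together reached 110730 to 123630 CPM in natural F, 119290 to 130040 in IVF F, 114030 to 119570 in natural M and 92590 to 107800 in IVF M.

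The liver clears hormones, bile acids and drugs, exports most plasma proteins and handles metals, and each of these tasks has known sets of genes. Secretory load is met by the unfolded protein response, which induces chaperones of the endoplasmic reticulum when client proteins accumulate. Oxidative and electrophilic stress acts through the factor NRF2, whose targets include quinone reductase and enzymes of glutathione conjugation. Zinc above need is bound by metallothioneins and exported by the transporter ZnT1, the product of Slc30a1. Many liver genes differ between males and females, so an effect shared by the sexes has to be read within each.

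With sex as a covariate, 0 of 13204 genes (0.0%) were called at an adjusted p under 0.05 for IVF against natural (quasi-likelihood test of edgeR, p-values adjusted by Benjamini-Hochberg), each gene having an adjusted p of 1. The unadjusted p was under 0.05 for 352 genes (2.67%), of which 179 were higher (1.36%) and 173 lower (1.31%) after IVF. DESeq2's Wald test called 2 genes, Abcc4 and Abcd2, limma voom called 0, and the average of the F and M effects in a fit of 4 group means called Abcd2. The genes below are therefore the top of a ranking without a called gene.

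The sign of the difference was the same in F and M for 6478 genes (49.1%), 3198 of them higher (24.2%) and 3280 lower (24.8%) after IVF. A stricter description asks that the 3 IVF and the 3 natural libraries do not overlap in CPM. That held in F for 980 genes (7.42%) and in M for 1177 (8.91%). It held in both strata the same way for 42 genes (0.318%), 25 higher (0.189%) and 17 lower (0.129%), and in both strata in opposite ways for 78 (0.591%). Of those 42 genes, 40 were also among the 352 at p under 0.05. Within F, edgeR called 0 genes and 488 had an unadjusted p under 0.05 (3.7%), and within M it called 1, Abcd2 (0.00757%), and 355 had such a p (2.69%). That threshold was met in both strata by 10 genes of the same direction (0.0757%) and by 22 of opposite directions (0.167%). The difference between the M and F effects, tested as an interaction in edgeR, was called for 0 genes and had an unadjusted p under 0.05 for 511 (3.87%).

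**Figure D1:**
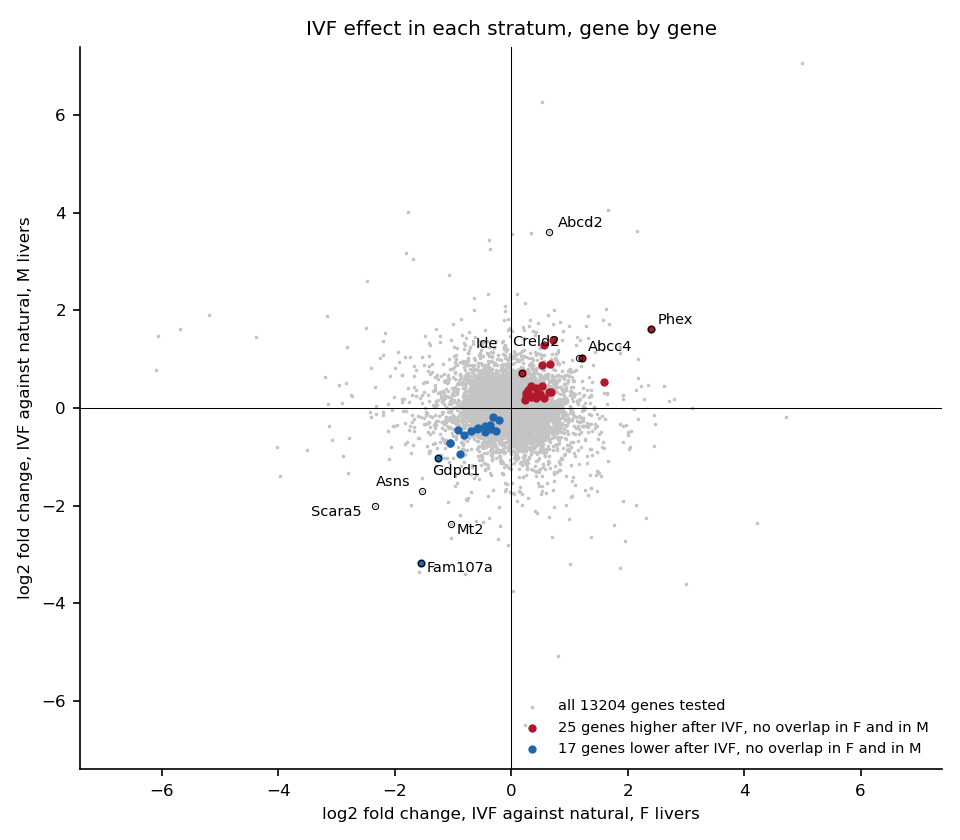
Each point is 1 of 13204 genes, with the log2 fold change of IVF against natural in F livers on the x axis and in M livers on the y axis. The 25 red and 17 blue points, genes whose libraries do not overlap in either stratum, lie mostly within 1 log2 unit of no difference, and the labelled grey points with larger values overlap between the groups in at least 1 stratum.

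Genes without overlap in both strata were named when they averaged at least 50 normalized counts over the 6 libraries of the higher side. Of the 20 higher and 13 lower genes that met this, the 12 of smallest p on each side were taken. They were chosen on these libraries, so their values are a description and no support for an effect of IVF. Their pooled log2 fold changes ran from 0.28 to 1.12 on the higher side and from -0.91 to -0.24 on the lower side. Entpd5 (0.31), Magt1 (0.31) and Senp7 (0.33) came next on the higher side, and B3gnt2 (-0.23) next on the lower side. All 42 genes were protein coding. Positions are those of GENCODE on GRCm38.

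Abcc4 ranked first by p. It encodes MRP4, a transporter in the hepatocyte's sinusoidal membrane that exports bile acids and cyclic nucleotides to the blood, and lies on chromosome 14 (118482692 to 118706219). Its levels were 4.61, 8.39 and 5.85 CPM in natural F and 16.3, 16.9 and 10 in IVF F. In males they were 1.28, 1.3 and 2.21 CPM in natural livers and 3.57, 2.85 and 3.4 in IVF livers. F livers had more Abcc4 than M livers in either mode of conception, and within each sex the lowest IVF library stood above the highest natural one. The log2 fold change was 1.21 ± 0.30 (SE) in F and 1.02 ± 0.32 in M, and 1.12 ± 0.21 pooled (2.18-fold, n = 6 against 6, unadjusted p = 0.000165, adjusted p = 1, edgeR). DESeq2 gave it an adjusted p of 0.0195, and limma voom 0.99985. It was the only one of these 12 higher genes at least 2-fold higher in both strata. Its groups stayed apart in each of the 12 analyses that left out 1 library. That is no further support, since groups already apart can come to overlap there only through the changed scaling.

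Another 2 of the higher genes belong to the handling of insulin and of sulfate. Ide, on chromosome 19 (37268743 to 37337852), encodes the insulin-degrading protease. Its levels were 71.5, 75.1 and 72.4 CPM in natural F against 86.8, 77.4 and 84.9 in IVF F, and 91.3, 90.6 and 85.6 in natural M against 148, 147 and 147 in IVF M. The gap was narrow in F and wide in M, with log2 fold changes of 0.19 ± 0.13 and 0.73 ± 0.13. The difference between these had an unadjusted p of 0.0152 and an adjusted p of 0.99993 (edgeR interaction). Papss1, on chromosome 3 (131564768 to 131643671), makes PAPS, the sulfate donor of sulfotransferases. It had 7.7, 7.79 and 5.27 CPM in natural F, 13.8, 8.44 and 11.1 in IVF F, 11.5, 11.6 and 11.8 in natural M and 14.7, 12.2 and 17.1 in IVF M. Its pooled log2 fold change was 0.50 ± 0.16.

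Nqo1, the NRF2 target that reduces quinones, lies on chromosome 8 (107388225 to 107403206). It stood at 9.55, 3.48 and 8.05 CPM in natural F and 10.8, 10.6 and 9.66 in IVF F. In males it stood at 2.01, 3.79 and 2.53 CPM and 5.84, 5.31 and 4.3 CPM. Like Abcc4, it was at a higher level in F than in M. The natural F libraries ranged widely, and the highest of them lay just under the lowest IVF F library. The pooled log2 fold change was 0.71 ± 0.24 (unadjusted p = 0.0102, edgeR).

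Nat8f2, a member of the N-acetyltransferase 8 family on chromosome 6 (85865422 to 85869158), was the named gene of highest level, at 952 ± 95.7 CPM in natural F and 1485 ± 190.5 in IVF F (mean ± SD, n = 3), and 1337 ± 53.5 in natural M and 1668 ± 212 in IVF M. Its pooled log2 fold change was 0.48 ± 0.14. The Nat8f genes are near-identical copies of each other, and how the authors' counting divided reads among them is not given in the sources used here, so this value is uncertain. The same holds for Raet1d, a stress-induced ligand of the NK cell receptor NKG2D, which also overlaps Raet1e on the same strand. Raet1d had 1.6515 CPM in its lowest IVF M library and 1.6476 in its highest natural M library, and its groups stayed apart in only 2 of the 12 analyses that left out 1 library.

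The other higher genes had smaller pooled differences than Abcc4. Cog6, a subunit of the complex that tethers vesicles to the Golgi, ranged from 17.6 to 19.2 CPM over the 6 natural libraries and from 21.1 to 26 CPM over the 6 IVF libraries, so that it did not overlap across sexes either. Trappc12, a subunit of a TRAPP tethering complex, ranged from 20 to 24.3 CPM in natural and from 24.2 to 30.6 in IVF libraries. Farsb, a subunit of phenylalanyl-tRNA synthetase, had a pooled log2 fold change of 0.39 ± 0.14. Cdk5rap3, a partner of the UFM1 ligase at the endoplasmic reticulum, had 0.35 ± 0.12. In F, the groups of Cdk5rap3 nearly touched, at 34.7, 41.1 and 34.3 CPM in natural F and 62.5, 41.2 and 46.4 in IVF F. It overlaps D030028A08Rik on the other strand, and whether reads were counted by strand is not given in the sources used here. Tasp1, the protease taspase that cleaves the histone methyltransferase MLL, had 0.42 ± 0.13, and the kinase gene Ick, known from cilia, 0.40 ± 0.13. Like Cog6, Ick did not overlap across sexes, at 9.96 to 15.3 CPM in natural and 16 to 21 in IVF libraries. The same held for Sh3bp1, Lhx6 and D1Ertd622e among the lower genes below.

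**Figure D2:**
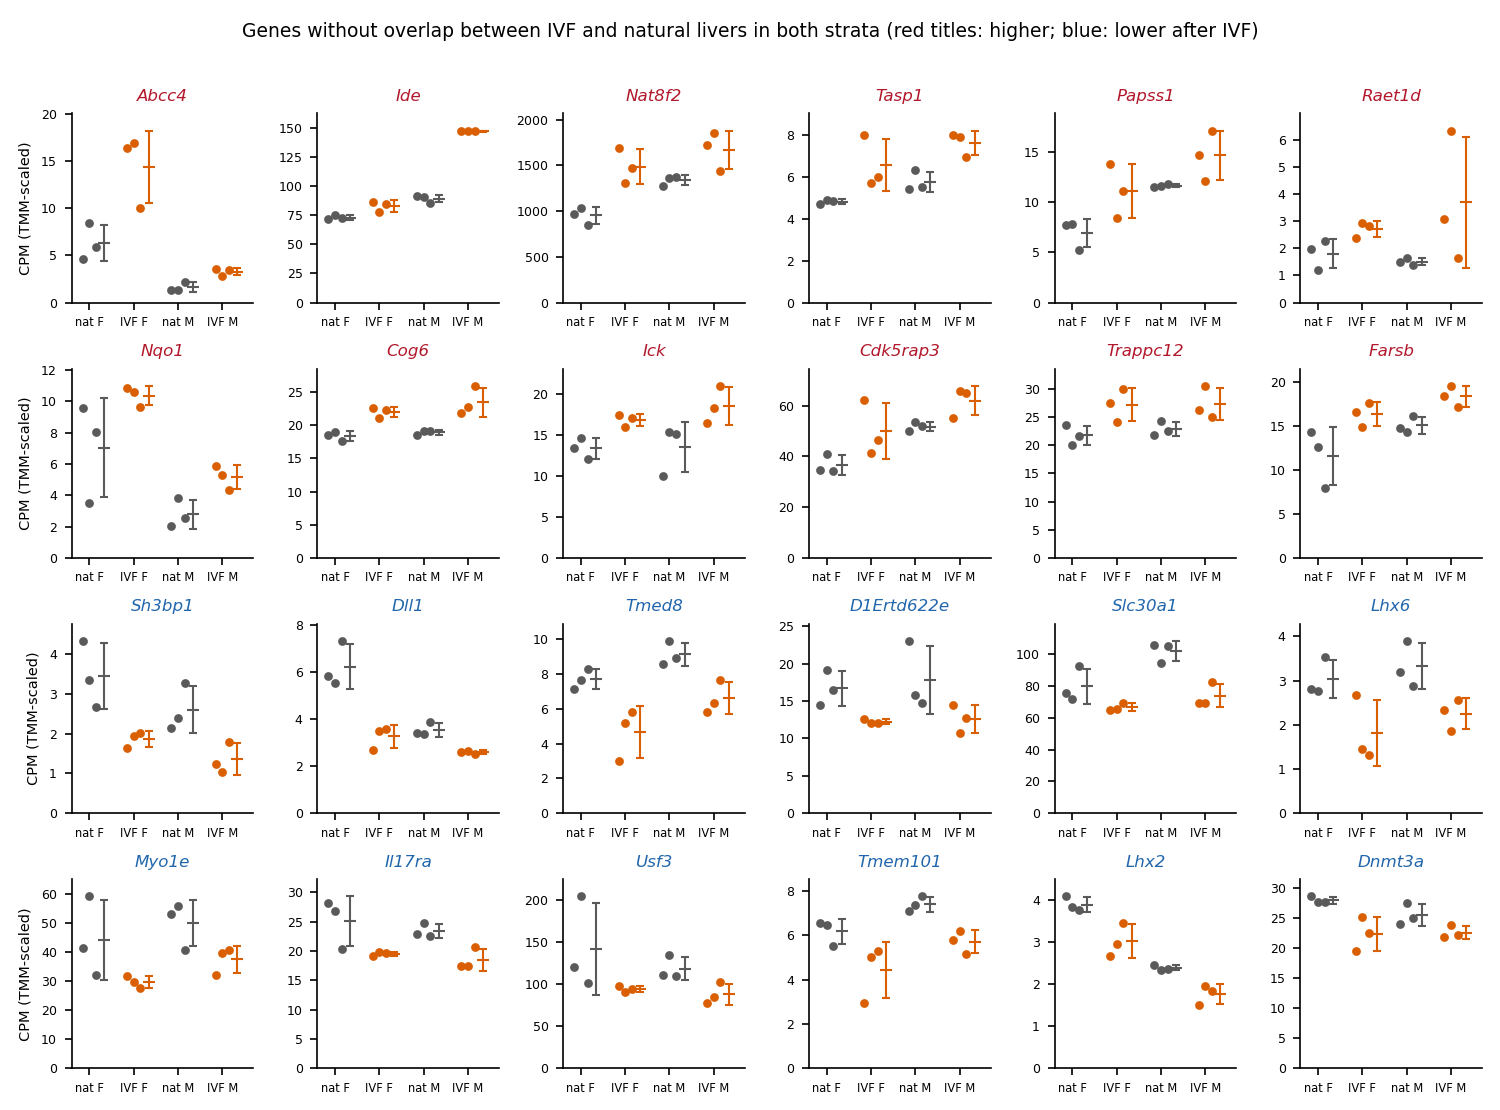
Each panel shows the CPM of 1 named gene in the 12 libraries (points), grouped as natural F, IVF F, natural M and IVF M, with the mean ± SD of each group beside them and a y axis from 0. In each panel the IVF points lie on the same side of the natural points in F and in M, by margins as small as in Raet1d and as wide as in Ide in M.

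Among the 12 lower genes, all with the count minimum, Sh3bp1 and Dll1 had the smallest p-values. Sh3bp1, on chromosome 15 (78899768 to 78912051), encodes a GTPase-activating protein for Rac. It had 4.33, 3.36 and 2.66 CPM in natural F and 1.63, 1.95 and 2.01 in IVF F. In M it had 2.15, 2.4 and 3.28 CPM in natural and 1.24, 1.03 and 1.8 in IVF livers. The effect was of like size in both, -0.87 ± 0.30 in F and -0.94 ± 0.30 in M. Dll1, a ligand of Notch receptors, lies on chromosome 17 (15367354 to 15376872). It had 5.82, 5.51 and 7.3 CPM in natural F, 2.67, 3.49 and 3.59 in IVF F, 3.38, 3.35 and 3.87 in natural M and 2.61, 2.66 and 2.5 in IVF M. Its log2 fold change was -0.92 ± 0.21 in F and -0.45 ± 0.21 in M, and the interaction had an unadjusted p of 0.148 (edgeR).

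The zinc exporter gene Slc30a1, on chromosome 1 (191906767 to 191913247), was lower after IVF in both strata. It had 75.4, 71.8 and 92.3 CPM in natural F and 65.2, 65.6 and 69.5 in IVF F. Males had 106, 94.5 and 105 CPM in natural and 69.5, 69.6 and 82.3 in IVF livers, and the pooled log2 fold change was -0.36 ± 0.11 (unadjusted p = 0.00568, edgeR). The metallothioneins, which bind zinc and copper and like Slc30a1 are induced by zinc, were also at p under 0.05. Mt2 had 603, 342 and 142 CPM in natural F and 164, 74 and 292 in IVF F, which overlap, and 115, 250.04 and 148 in natural M and 38.7, 14.3 and 45.5 in IVF M, which do not. Its pooled log2 fold change was -1.71 ± 0.47. Mt1 had 703, 789.5 and 206 CPM in natural F, 441, 111 and 333 in IVF F, 148, 400.03 and 355 in natural M and 118, 24.4 and 169 in IVF M, with overlap in both strata and a pooled log2 fold change of -1.24 ± 0.49. Slc39a10, a zinc importer chosen after its values were seen, had a pooled log2 fold change of 0.037 ± 0.19. Slc30a10, of the same gene family as Slc30a1 and chosen in the same way, differed in sign between the strata. It had -0.48 ± 0.20 in F, without overlap, and 0.26 ± 0.20 in M, with overlap. Metallothioneins are also known to be induced by glucocorticoids and inflammation.

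Dnmt3a, on chromosome 12 (3806007 to 3914443), encodes a methyltransferase that sets new DNA methylation. It had 28.6, 27.7 and 27.6 CPM in natural F and 19.6, 25.2 and 22.5 in IVF F. In males it had 24, 27.6 and 25.1 CPM and 21.8, 23.8 and 22.2 CPM. The difference was small, -0.24 ± 0.10 on the log2 scale (unadjusted p = 0.0337, edgeR), and it stayed at p under 0.05 in 13 of 23 alternative analyses. Among 28 tested genes for DNA methylation and chromatin modifiers it was the 1 member at p under 0.05, against 2.67% of all genes. In both strata 3 of the 28 members were higher and 12 lower, against 24.2% and 24.8% of all genes. The same-sign share was 53.6%, against 49.1% of all genes. With scaling by library size alone 4 were lower in both strata, so the direction of this list depends on the scaling. Tet3, which oxidizes methylated cytosine, had a pooled log2 fold change of -0.28 ± 0.18.

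The other lower genes were of mixed function. The cytokine receptor gene Il17ra had 28.2, 26.8 and 20.3 CPM in natural F, 19.1, 19.8 and 19.7 in IVF F, 22.8, 24.8 and 22.6 in natural M and 17.4, 17.5 and 20.7 in IVF M. Lhx2 and Lhx6 encode LIM-homeodomain transcription factors, and Lhx2 is known in the liver from stellate cells. Lhx2 had -0.39 ± 0.15 and Lhx6 -0.68 ± 0.21 on the log2 scale, both from levels under 5 CPM, and Lhx6 was separated in F by 2.67 against 2.76 CPM. Usf3, of the USF family of E-box binding factors, had -0.51 ± 0.16. Its natural F libraries were 119.7, 204 and 101 CPM, the highest being replicate 2, which is among the smallest libraries. Myo1e, a class I myosin, had -0.49 ± 0.15, with the same replicate highest (41.4, 59.2 and 32.1 CPM in natural F). Tmed8, Tmem101 and D1Ertd622e had -0.57, -0.41 and -0.47.

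All 24 named genes kept their sign in each of the 23 alternative analyses. They were chosen for 1 direction in these same libraries, so this could hardly come out otherwise and is no support. An offset for the GC content of genes left only 12 of the 24 without overlap in both strata, and 19 of the 42. For each named gene the adjusted p of the interaction was 0.99993, and the F effect was larger than the M effect in size for 7 of 12 higher and 8 of 12 lower genes.

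Promoters were read for the named genes as the 250 bases before the start listed by RefSeq (GRCm38.p6), found for 20 of the 24. Of 6 motifs searched on both strands, the E-box CACGTG, which USF, CLOCK and SREBP proteins can bind, was matched in 4 of the 20 (20%), those of Abcc4, Tasp1, Farsb and Tmed8. It was matched in 8.33% of 10212 tested genes with a promoter. The other 5 were TTCNNNGAA of STAT proteins, GGTCANNNTGACC of estrogen receptors, AGGTCANAGGTCA of PPAR and HNF4 receptors, GAAANNGAAA of interferon regulatory factors and TTATGNAA of clock output factors. They were matched in 0 of the 20, against 6.32%, 0, 0.049%, 2.85% and 2.1% of the tested genes with a promoter, in the same order. A match of letters is a description and does not show binding. The windows of Abcc4 (14, 118706220 to 118706469), Tasp1 (2, 140066806 to 140067055) and Farsb (1, 78488898 to 78489147), each on the minus strand, are shown 5′ to 3′ because they belong to higher genes, with the E-box in capitals, 205, 56 and 39 bases before the start:
Abcc4: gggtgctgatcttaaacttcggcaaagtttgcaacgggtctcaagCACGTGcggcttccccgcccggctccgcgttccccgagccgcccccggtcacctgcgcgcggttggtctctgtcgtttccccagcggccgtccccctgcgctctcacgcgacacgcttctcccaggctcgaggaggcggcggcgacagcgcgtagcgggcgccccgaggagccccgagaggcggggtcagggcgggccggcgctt
Tasp1: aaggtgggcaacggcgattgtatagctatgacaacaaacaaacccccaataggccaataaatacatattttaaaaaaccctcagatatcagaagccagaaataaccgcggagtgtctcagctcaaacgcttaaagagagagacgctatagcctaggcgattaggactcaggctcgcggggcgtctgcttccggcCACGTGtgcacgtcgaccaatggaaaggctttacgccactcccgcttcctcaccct
Farsb: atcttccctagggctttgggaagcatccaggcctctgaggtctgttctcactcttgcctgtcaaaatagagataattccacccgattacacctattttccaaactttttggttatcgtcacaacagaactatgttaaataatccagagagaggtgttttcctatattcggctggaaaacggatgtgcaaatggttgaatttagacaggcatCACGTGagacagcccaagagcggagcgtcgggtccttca

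Outside the count minimum, 9 further genes did not overlap in both strata, at levels where a library holds few reads. Gdpd1, which encodes a lysophospholipase D, ranked second by p. It had 1.68, 1.2 and 1.1 CPM in natural F, 0.445, 0.707 and 0.47 in IVF F, 2.42, 1.95 and 1.9 in natural M and 1.03, 0.836 and 1.2 in IVF M, and log2 fold changes of -1.26 ± 0.33 in F and -1.03 ± 0.30 in M. It is 1 of 4 genes at least 2-fold apart and without overlap in both strata, with Abcc4, Phex and Fam107a. Of these 9, Gdpd1, Slc27a3, Gata2 and Fam107a were lower, and Themis, Ms4a4b, Ypel1, Phex and Ppp1r12b higher. Gata2, a factor of blood progenitors and endothelium, had 1.0, 0.839 and 2.78 CPM in natural F and 0.742, 0.831 and 0.684 in IVF F.

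Genes at least 2-fold apart in both strata numbered 37, 20 higher (0.151%) and 17 lower (0.129%), and 11 of them had the count minimum. All but 4 overlapped between the groups in at least 1 stratum. Lepr, the leptin receptor gene, had 12.1, 4.19 and 20.9 CPM in natural F and 3.41, 4.66 and 9.06 in IVF F, with 3.97, 1.05 and 2.81 in natural M and 1.92, 0.836 and 1.15 in IVF M. The highest values were natural in both strata, yet the lowest natural library lay among the IVF libraries in each. Scara5, a ferritin receptor, differed in a sex-specific range, 46.3, 9.79 and 31.7 CPM in natural M and 6.87, 5.26 and 9.76 in IVF M against at most 0.24 CPM in any F library, so its shared sign in F rests on a few reads. A1bg showed the reverse, 424, 275 and 365 CPM in natural F and 562, 1645 and 394 in IVF F, but at most 0.148 CPM in any M library. Abcd2, a peroxisomal fatty acid transporter called by DESeq2 and by the average contrast, is not 1 of the 37, being 1.56-fold higher in F. It had 75.2, 74.1 and 112 CPM in natural F, 88.9, 191 and 128 in IVF F, 0.731, 0.549 and 0.593 in natural M and 9.61, 6.2 and 7.31 in IVF M. Its groups overlapped in F, and its interaction had an unadjusted p of 2.38e-05 and an adjusted p of 0.314 (edgeR).

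Gene lists were then read for shared direction, each against the 49.1% of all tested genes whose sign was the same in F and M. Of all tested genes, 24.2% were higher and 24.8% lower in both strata. No list had a member with an adjusted p under 0.05 (edgeR), and the median log2 fold change over all tested genes was -0.015 in F and 0.010 in M. Among the 28 pathway lists the largest share was found for 30 genes of the unfolded protein and integrated stress response, 25 of which had the same sign (83.3%), 21 higher and 4 lower. The list's median log2 fold change was 0.28 in F and 0.17 in M. At an unadjusted p under 0.05, 5 members were higher, against 1.36% of all genes, and 1 was lower.

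Those higher were chaperones and partners of the endoplasmic reticulum. Hspa5 encodes BiP, its main HSP70 chaperone and a sensor of unfolded proteins, and had 425, 665 and 694 CPM in natural F, 1852, 657 and 936 in IVF F, 739.9, 1460.4 and 1509 in natural M and 1563, 1035 and 3298 in IVF M. Its groups overlapped in both strata, and IVF F replicate 1 and IVF M replicate 3 stood highest. Hyou1, a large chaperone of the same compartment, had 114, 86.4 and 146, 267, 129 and 208, 184, 301 and 405 and 482, 263 and 682 CPM in the same order of groups. Creld2 had 15.2, 19.4 and 15.9, 70.4, 18.1 and 25.6, 25.4, 61.3 and 92.7 and 94.1, 30.6 and 240.02 CPM, the same libraries again being highest. The pooled log2 fold changes were 0.81 ± 0.33 for Hspa5, 0.74 ± 0.27 for Hyou1, 1.09 ± 0.47 for Creld2, 0.76 ± 0.35 for Manf and 0.77 ± 0.35 for Syvn1, the ubiquitin ligase that clears misfolded proteins. Without IVF M replicate 3, only 11 members were higher in both strata. Without the 2 smallest libraries, 1 of which is IVF F replicate 1, 17 were higher in both strata and 0 were higher at p under 0.05. The lower member was Asns, asparagine synthetase and a target of ATF4 in the integrated stress response, with 1.0, 12.1 and 13.8 CPM in natural M and 2.68, 1.67 and 3.9 in IVF M, and at most 1.04 CPM in F. Atf4 itself and Ddit3 were not at p under 0.05.

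The NRF2 list had 26 members, of which 14 were higher and 2 lower in both strata (61.5%, against 49.1% of all genes). Its median log2 fold change was 0.057 in F and 0.225 in M. Without the 2 smallest libraries these medians were -0.00045 and 0.22, and with library size alone -0.013 and 0.35, so the median in F depends on the processing. At an unadjusted p under 0.05 (edgeR), 5 members were higher, against 1.36% of all genes. Besides Nqo1 these were Ephx1, Ugdh, Srxn1 and Gsta2, which encode an epoxide hydrolase, the enzyme that makes glucuronic acid for conjugation, sulfiredoxin and a glutathione transferase. Ephx1 had 253, 176 and 289 CPM in natural F and 219.7, 320.5 and 279.9 in IVF F, which overlap, and 395, 357 and 305 in natural M and 641, 668 and 828 in IVF M, which do not. Ugdh had log2 fold changes of 0.36 in F and 0.44 in M, and Srxn1 0.33 and 0.46. The difference in Gsta2 was 0.21 in F and 1.44 in M, and reads of the near-identical Gsta1 cannot be told apart from it here. Leaving out single libraries moved the count of members at p under 0.05 between 2, without natural M replicate 1, and 7.

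**Figure D3:**
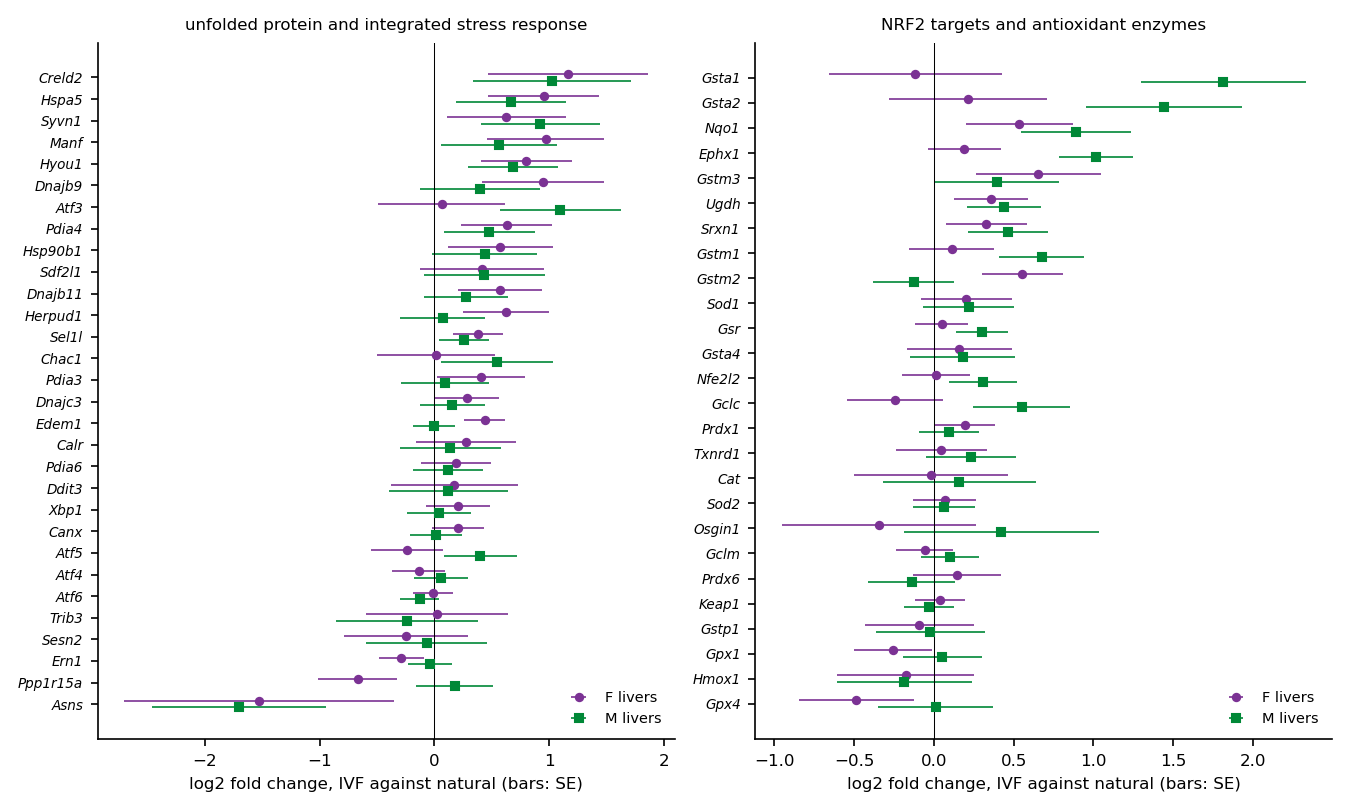
Log2 fold change of IVF against natural (x axis) for each member of 2 gene lists (y axis), with F livers as circles, M livers as squares and SE as bars. Chaperones such as Hspa5, Hyou1 and Creld2 lie right of 0 in both strata and Asns left of it, while in the NRF2 list Nqo1, Ugdh and Srxn1 lie right of 0 in both and Gsta2 and Ephx1 mainly in M.

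The proteasome degrades proteins tagged with ubiquitin. Of 31 constitutive subunits, 22 were higher and 2 lower in both strata (77.4%), against 24.2% and 24.8% of all genes. However, 0 had an unadjusted p under 0.05 (edgeR), against 2.67% of all genes, and the medians were 0.070 in F and 0.11 in M. Psma2 did not overlap in either stratum, at 35.9, 35.2 and 10 CPM in natural F, 39, 42.5 and 38.5 in IVF F, 40.7, 40.6 and 38.1 in natural M and 41.1, 45.9 and 50 in IVF M. The count of 22 became 10 without IVF F replicate 1, and 15 with scaling by library size alone. Cytosolic ribosomal proteins went the other way, 38 lower and 6 higher of 75 (58.7%), against 24.8% and 24.2% of all genes. At an unadjusted p under 0.05 (edgeR) 2 of the 75 were lower, against 1.31% of all genes. These were Rpl3 (-0.58 ± 0.20) and Rpl28 (-0.48 ± 0.22). With library size alone 13 were lower in both strata, so this direction depends on the scaling.

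In the acute phase list 8 of 32 members had the same sign in both strata (25%, against 49.1% of all genes), 8 lower, near the 24.8% of all genes lower in both, and 0 higher. Mt1, Mt2 and the interleukin receptor gene Il1r1 (-0.62 ± 0.26) were lower at p under 0.05, 3 of 32 against 1.31% of all genes. The other 24 differed in sign, 22 of them higher in F and lower in M, and the median was 0.20 in F and -0.81 in M. Without IVF F replicate 1, 15 members were lower in both strata. In some other lists single genes stood at p under 0.05 with the same sign in both strata, alone in their list or nearly so. Over all genes 2.67% stood at that p (edgeR). The lists held, for example, 1 of 43 imprinted genes, 1 of 41 complement and coagulation factors and 1 of 35 cytochromes P450. These single genes are therefore no result about their lists. Those higher were Prlr, the prolactin receptor gene (0.39 ± 0.17), Mbl2, a lectin that starts complement (0.51 ± 0.19), Ddc, an imprinted gene that encodes aromatic amino acid decarboxylase (0.60 ± 0.23), Col27a1, a fibrillar collagen gene (0.97 ± 0.33), and H2-Q4, an MHC class I gene with near-identical relatives (0.46 ± 0.18). Those lower were Hspb1, a small heat shock protein gene (-1.20 ± 0.41), Igf1r, the receptor gene for IGF1 (-0.53 ± 0.22), Tbx3, a target of Wnt signalling near the central vein (-0.74 ± 0.29), and Cyp2b10, which the drug receptor CAR induces (-1.39 ± 0.55). The Cyp2b10 difference came mainly from M, 41, 42.2 and 24.3 CPM in natural against 1.1, 15.7 and 4.35 in IVF livers. Female-biased liver genes held more at an unadjusted p under 0.05 (edgeR), 3 higher and 1 lower of 38, against 1.36% and 1.31% of all genes. In both strata 12 of the 38 were higher and 5 lower (44.7%), with medians of 0.28 in F and -0.16 in M. Without the sex covariate 0 were higher and 0 lower at that p. Of 36 male-biased genes 0 were higher and 1 lower at that p in the main analysis.

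In 4 lists few members shared a sign. For cholesterol synthesis and SREBP2 targets it was 2 of 25 (8%), for complement and coagulation factors 5 of 41 (12.2%), for the urea cycle and amino acid catabolism 7 of 30 (23.3%), and for the circadian clock and its output 5 of 21 (23.8%). In the cholesterol list 25 members were higher after IVF in F and 2 in M. The share in this list rested on single libraries, at 60% without IVF M replicate 3 and 0 without IVF M replicate 2. With library size alone, 11 of its members were higher in both strata, and the share of complement and coagulation factors became 36.6% and that of the clock 47.6%. Insulin signalling had 10 of 20 with the same sign (50%), and Ide was its member at p under 0.05. Irs1, the insulin receptor substrate gene, had -0.27 ± 0.13. In bile acid synthesis and transport, 12 of 25 shared a sign (48.0%), with Abcc4 at p under 0.05. Baat, which conjugates bile acids, had 0.25 ± 0.12, and Abcc2, the exporter into bile, 0.22 ± 0.14. Of 43 imprinted genes tested 18 shared a sign (41.9%), 6 higher and 12 lower.

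**Figure D4:**
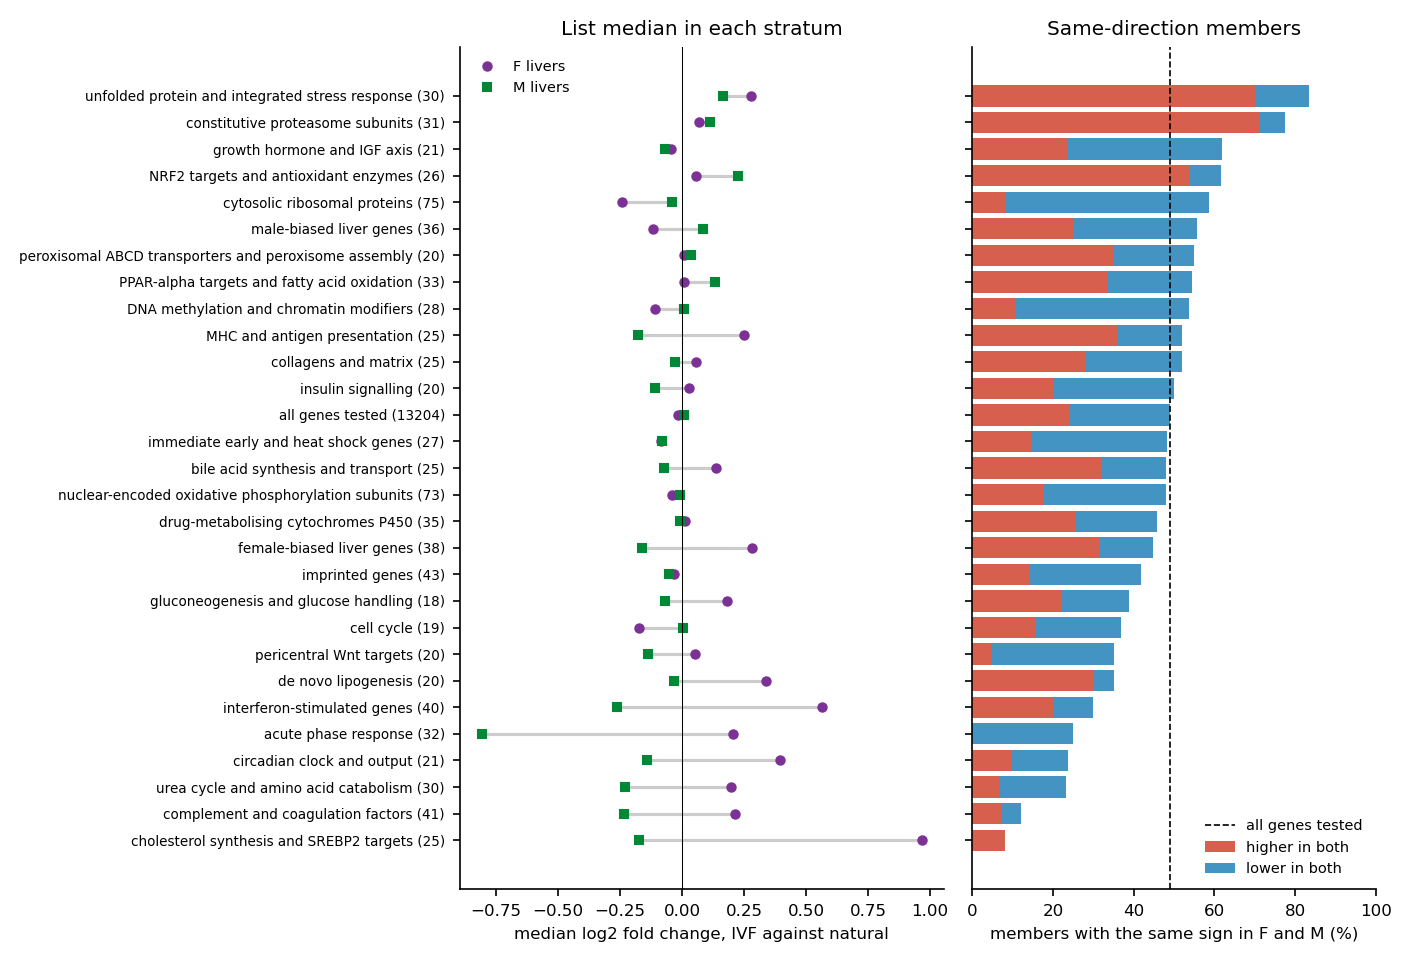
For each of the 28 pathway lists and all genes tested (y axis, number of tested members in brackets), the left panel gives the median log2 fold change of IVF against natural in F (circles) and M (squares), and the right panel the percentage of members higher (red) or lower (blue) in both strata, with the 49.1% of all tested genes as a dashed line. Among these pathway lists the stress response is at the top with 83.3% and medians of 0.28 and 0.17, and cholesterol synthesis at the bottom with 8%.

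Markers of other cell types were read beside these results, since in bulk liver fewer cells of a type and less RNA per cell cannot be told apart. Of 66 tested markers, 0 had an unadjusted p under 0.05 (edgeR), against 2.67% of all genes. In both strata 6 were higher and 16 lower, and 44 differed in sign. The same-sign share was 33.3%, against 49.1% of all genes, of which 24.2% were higher and 24.8% lower in both strata. The 12 Kupffer and macrophage markers summed to 444 to 571 CPM in natural F and 455 to 645 in IVF F, but to 402 to 453 in natural M and 229 to 382 in IVF M. Stellate and fibroblast markers, of interest beside Lhx2, summed to 462 to 543, 529 to 606, 369.97 to 477 and 337 to 374 CPM in the same order. In M the Kupffer sum was lower in each IVF library than in each natural one, the stellate sums overlapped, and in F neither sum was lower after IVF. The hepatocyte sum given above overlapped between the groups in F and was lower in each IVF than in each natural library in M. The part of these cells in the named genes was not tested.

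**Figure D5:**
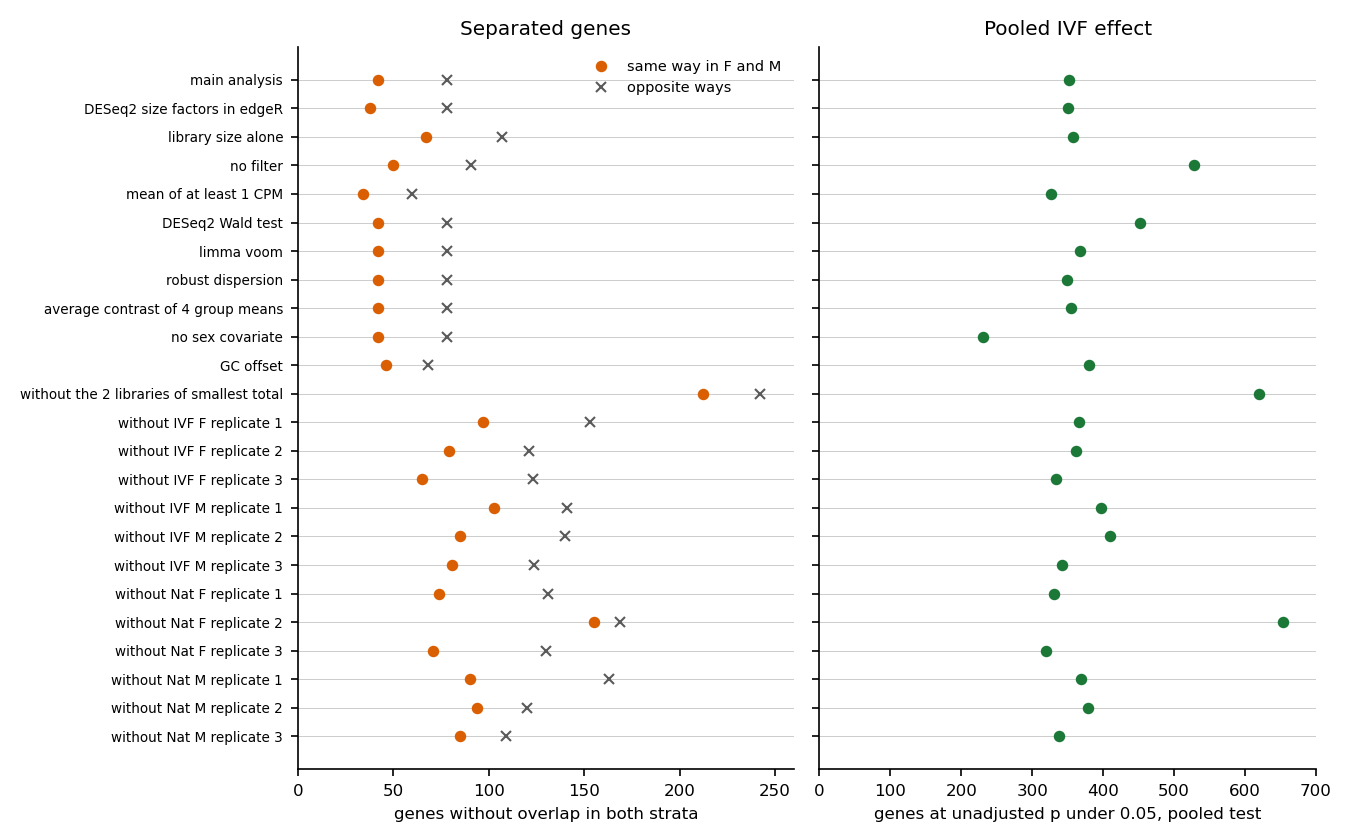
Rows are the main analysis, the alternatives and the 12 analyses without 1 library. Rows that change only the test or the model share the CPM of the main analysis, so their left-panel counts repeat it. The left panel counts genes without overlap in both strata, the same way (circles) or in opposite ways (crosses), and the right panel counts genes at an unadjusted p under 0.05 in the pooled test; in every row the opposite count is above the same-way count, 78 against 42 in the main analysis.

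In the main analysis and in each of the 23 alternatives, more genes were separated in opposite ways than in the same way. The alternatives reuse the same libraries and are not independent of each other. Those that change only the test or the model use the CPM of the main analysis, so they could only repeat its 78 and 42. The numbers nearest to each other were 155 the same way and 169 in opposite ways, without natural F replicate 2. Leaving out a library relaxes the criterion in its group, since 2 libraries overlap less readily than 3.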

How the data were processed

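Poly(A) messenger RNA libraries of 12 livers were made with a KAPA kit and sequenced on a NextSeq 500, per the labels' protocols. The authors deposited 1 table of raw counts, whole numbers for each gene symbol and library. The submitters' processing notes name Trimmomatic 0.32, STAR 2.3.0e, featureCounts 1.5.0 and mm10. Gene annotation, strand setting and multi-mapping option are not given in the sources used here. The table had 0 entries naming no gene, and 5498 symbols had no count. Columns were assigned by name, which equals the sample title. Whether animals of a group are littermates is not given in the sources used here, so p-values measure only the spread between these animals.

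For the pooled test, glmQLFit and glmQLFTest of edgeR 4.0.16 in R 4.3.3 were used with TMM, filterByExpr by the 4 groups and sex plus mode of conception as terms. Effects within F, within M and their difference came from 1 fit of 4 group means. The SE was taken as the size of a log2 fold change over the square root of its F statistic. Genes were called at a Benjamini-Hochberg adjusted p under 0.05. Tested genes held at least 99.6% of each library's counts. Named genes, as stated in the report, are every called gene and the 12 of smallest p per direction among separated genes of one sign with at least 50 normalized counts at the mean library size, and up to 4 members of smallest p from each list. Genes outside this are named as examples chosen after their values were seen. These include Manf, Syvn1, Gsta2, Gdpd1 and Lepr. The members, 28 pathway lists and 12 cell type lists were chosen with earlier results of these data known. Symbols were matched to GENCODE M21, 23805 by symbol and 337 by synonym, with 385 unmatched.

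Alternatives were DESeq2 1.42.0 and its size factors, limma 3.58.1 voom, library size alone, no filter, a mean of at least 1 CPM, robust dispersions, the average contrast, no sex covariate, a GC offset (loess span 0.5, GC known for 99.4% of tested genes), an adjusted p under 0.1, dropping the 2 smallest libraries, and dropping each library. List counts under these were added after the data were seen. The fit was tested on simulated counts.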

Additional observations from a re-analysis of the deposited data

How the results depend on the processing

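The count of genes called in the pooled test was 0 in the main analysis, 2 with DESeq2's Wald test (Abcc4 and Abcd2) and 1 with the average contrast (Abcd2). It was 0 under the other alternatives, each analysis without 1 library included, and 0 at an adjusted p under 0.1. The 352 genes at an unadjusted p under 0.05 became 231 without the sex covariate and 620 without the 2 smallest libraries, and 319 to 653 when 1 library was left out, the highest without natural F replicate 2. Library size alone, which shifts the median log2 fold change to -0.084 in F and 0.14 in M, raised the 42 genes separated in both strata to 67, of which 31 were among the 42. Without the 2 smallest libraries there were 212, and 65 to 155 without 1 library, where the criterion is looser by construction. The GC offset gave 46, of which 19 were among the 42. Genes at least 2-fold apart in both strata numbered 37, and 533 with no filter, 19 with a mean of at least 1 CPM, 62 without the 2 smallest libraries and 45 to 69 without 1 library. The cause of these shifts was not tested. The pooled medians of the cell cycle list and of the collagen and matrix list changed sign in 8 alternatives each, and those of other lists in at most 7. No paired analysis was possible because the labels give no replicate numbers, and those used follow accession order. Depth limits genes below about 1 CPM, where 1 to 3 counts decide whether groups overlap.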

Other observations

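Genes of lymphocytes and red cells stood among the low-level genes of the ranking, chosen after their values were seen. Themis, which T cells need to develop, had 0.914, 0.699 and 0.593 CPM in natural M and 3.09, 1.57 and 1.25 in IVF M, and 0.12, 0.12 and 0.116 in natural F and 0.148, 0.291 and 0.128 in IVF F. Ms4a4b, also a T cell gene, had 0.521, 0.24 and 0.348 CPM in natural F and 1.34, 1.21 and 1.11 in IVF F, and 0.32, 0.30 and 0.277 in natural M and 0.343, 0.344 and 0.601 in IVF M. Gzmb, a protease of killer cells, went the other way, 0.882, 2.52 and 1.27 CPM in natural F and 0.297, 0.665 and 0.47 in IVF F, with overlap in M. Of 7 tested T and NK cell markers 5 were lower and 1 higher in both strata and 0 were at an unadjusted p under 0.05 (edgeR). The same-sign share was 85.7%, against 49.1% of all genes. Without the 2 smallest libraries, 3 were lower and 2 higher in both strata. These 7 markers summed to 3.53 to 10.8 CPM in natural F, 3.21 to 6.38 in IVF F, 3.4 to 5.42 in natural M and 2.2 to 2.71 in IVF M.

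The red cell gene Trim10 had a pooled log2 fold change of -1.96 ± 0.81. The haemoglobin genes Hbb-bs, Hbb-bt and Hba-a2 were listed at 0 in the 12 libraries, so they give no reading of blood content. Another 4 erythroid markers were tested. Of these 4, 0 were higher after IVF in F and 2 in M, with a median log2 fold change of -2.92 in F and -0.38 in M. They summed to 8.03 to 70.6 CPM in natural F, 6.69 to 21.3 in IVF F, 25.8 to 61.6 in natural M and 27.3 to 176 in IVF M. The sums overlapped in both strata.

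Prok1, which encodes a secreted ligand, and A630076J17Rik ranked among the 12 genes of smallest p and lie on opposite strands of chromosome 3, where 107232797 to 107239707 and 107230614 to 107234723 overlap. Prok1 had 0.401, 0.479 and 0.637 CPM in natural F and 0.594, 1.08 and 1.58 in IVF F, which overlap, and 0.777, 0.449 and 1.11 in natural M and 1.58, 2.76 and 1.9 in IVF M, which do not. A630076J17Rik had 0.521, 2.16 and 1.51 CPM in natural F and 1.93, 2.24 and 4.15 in IVF F, with overlap, and 2.28, 1.45 and 1.82 in natural M and 3.91, 4.97 and 4.75 in IVF M, without. Without knowing whether strand was used in counting, the reads of this pair cannot be told apart.

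The titles of IVF F replicate 1 and IVF M replicate 2 share a number, which no other F and M titles do, and the labels do not say what it stands for. Across genes, the deviations of these libraries from their group means correlated with r = -0.075, within the range of -0.27 to 0.30 over the 9 pairs of an IVF F and an IVF M library.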
